A study of Mus musculus with 12 samples.

Results

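The family of miR-130a, miR-130b, miR-301a and miR-301b was followed through fibroblasts, embryonic stem cells and reprogrammed cells of the mouse. Every measured miRNA named as an arm of these 4 hairpins was taken. This gave 8 of the 1042 miRNAs measured, the arms mmu-miR-130a-3p, mmu-miR-130a-5p, mmu-miR-130b-3p, mmu-miR-130b-5p, mmu-miR-301a-3p, mmu-miR-301a-5p, mmu-miR-301b-3p and mmu-miR-301b-5p, written below without the species prefix. Small RNA was sequenced in 12 libraries of 5 cell types. The MEFs (mouse embryonic fibroblasts, 3 libraries) had the background C57B6/129SvJae F1, and the ESCs (3 libraries) were the embryonic stem cell line E14 with the background 129/ola. The iPSCs (2 libraries) came from MEFs of that F1 background infected with a lentivirus that carries Oct4, Sox2, Klf4 and c-Myc under doxycycline control. Nuclear transfer of a MEF into an oocyte gave the NT-ESCs (2 libraries). The NT-iPSCs (2 libraries) came from transfer of an iPSC nucleus into an enucleated oocyte, and these 3 reprogrammed types shared their starting MEFs. The 4 pluripotent types grew on irradiated MEFs with leukaemia inhibitory factor. Replicates were batches of RNA of 1 line per cell type, so p-values measure the spread between batches and do not cover differences between lines. ESCs differed from the other groups in strain as well as in cell type, and these cannot be told apart.

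A miRNA gene is transcribed into a hairpin that Drosha and Dicer cut into a duplex of a 5p and a 3p strand. Usually 1 strand is kept by an Argonaute protein, where it pairs with messenger RNAs mainly through its seed, the bases 2 to 8, and the other strand is degraded. The 3p strands of this family share 1 seed and can therefore pair with overlapping sets of messenger RNAs. The family is known for regulators of proliferation and of TGF-beta signalling among its targets, and its members have been described as promoting the formation of iPSCs.

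The mature sequences of the 3p arms are shown first, because their common seed defines the family. Sequences and positions were taken from RefSeq (GRCm38.p6), which held 7 of the 8 mature arms, the entry for miR-301b-3p being the one not found. Capitals mark the seed.
miR-130a-3p: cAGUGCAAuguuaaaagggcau
miR-130b-3p: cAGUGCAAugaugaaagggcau
miR-301a-3p: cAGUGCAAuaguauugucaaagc
Counted from 1 at the 5′ end, miR-130a-3p and miR-130b-3p differed at 2 of 22 bases, U11A and A13G. Between miR-130a-3p and miR-301a-3p 10 of the 22 compared bases differed, all of them outside the seed. How reads with mismatches were assigned between such near copies is not given in the sources used here.

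The 5p arms are shown because the arm that held most reads of a hairpin differed between cell types. Their seeds, again in capitals, are not the family seed, and miR-301a-5p and miR-301b-5p shared the seed CUCUGAC.
miR-130a-5p: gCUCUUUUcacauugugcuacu
miR-130b-5p: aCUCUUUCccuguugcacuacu
miR-301a-5p: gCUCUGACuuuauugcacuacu
miR-301b-5p: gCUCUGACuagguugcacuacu
The 5p arms of miR-301a and miR-301b differed at U10A, U11G and A12G. The seeds of miR-130a-5p and miR-130b-5p differed from each other at U8C.

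The 4 hairpins lie at 3 loci of GRCm38.p6. The hairpin of miR-301a (gene Mir301) lies at chr11:87113004-87113089 on the plus strand in an intron of Ska2, which encodes a spindle and kinetochore protein. Here it is printed with its 5p arm and then its 3p arm in capitals, since both arms gained or lost reads.
miR-301a: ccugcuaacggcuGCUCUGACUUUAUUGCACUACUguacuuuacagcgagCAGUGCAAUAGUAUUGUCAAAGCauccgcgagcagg
miR-130b (chr16:17124061-17124142) and miR-301b (chr16:17124400-17124496) lie on the minus strand, 257 bases apart, within an intron of 2610318N02Rik, a gene of the same strand. For miR-130b the arms are marked in the same way.
miR-130b: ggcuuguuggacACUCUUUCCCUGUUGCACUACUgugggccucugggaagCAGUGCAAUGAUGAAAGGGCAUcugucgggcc
miR-130a lies alone at chr2:84741115-84741178 on the minus strand, outside annotated genes other than its own. The nearest gene was Gm19426, 991 bases away.

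The deposited values had been scaled by size factors and passed through the variance stabilizing transformation of DESeq, and are called VST values here, on a log2 scale. Inverting it gave back whole reads, of which a library held 7867514 to 8608689 in MEFs, 4863365 to 5771398 in ESCs, and in the reprogrammed types 5293867 to 7567263. A count of 0 allows up to 3 reads, or a CPM (reads scaled to 1000000 miRNA reads in the library) of 0.348 to 0.617, and such limits and intervals cover counting error only. Replicate libraries differed by 46.4 to 350 times counting noise (chi-square per degree of freedom). The 16 pluripotency miRNAs of the miR-290 and miR-302 clusters summed to a CPM of 101373 to 121366 in ESCs, 134331 to 206406 in reprogrammed cells and 0.89 to 12.9 in MEFs, where 6 of them had no read in any library. The 10 fibroblast and mesenchymal miRNAs, which feeder cells also carry, summed to 65616 to 99559 in MEFs, 40294 to 44175 in ESCs, 21337 to 23308 in iPSCs and 60542 to 71393 in both nuclear transfer types, and none of the 10 was at 0. The muscle list summed to 106569 to 126969 in MEFs, to 489 to 569 in ESCs (with miR-133b-3p at 0) and to 1846 to 2521 in the reprogrammed types. In the same order of groups the 5 blood miRNAs measured of 6 summed to 199 to 223, 1274 to 1539 and 267 to 604, and the endothelial pair to 141 to 166, 766 to 983 and 7.33 to 14.2. The part of feeder, muscle, blood or endothelial RNA in the family's values was not tested. In these bulk samples fewer cells of a type and less RNA per cell cannot be told apart. No label gives a batch, and the reprogrammed libraries had relative size factors of 1.09 to 1.37, above the 0.724 to 0.95 of MEFs and ESCs. The preparation of the libraries and the cell types therefore cannot be told apart in any comparison of reprogrammed cells with MEFs or ESCs.

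Nearly all reads of the family lay on its 3p arms, and most of these on miR-130a-3p and miR-130b-3p. Together the 4 seed-sharing 3p arms made up, as a percentage of all miRNA reads, 0.163% ± 0.0279 (SD, n = 3) of MEFs and 0.46% ± 0.0492 (n = 3) of ESCs. They made up 0.534% ± 0.0216 of iPSCs, 0.576% ± 0.00349 of NT-ESCs and 0.276% ± 0.0194 of NT-iPSCs (n = 2 each). The MEF and NT-iPSC libraries, at 0.143% to 0.195% and 0.262% to 0.289%, lay below the range of 0.406% to 0.579% of the other 7 libraries. With the 10 most abundant miRNAs of each library left out of that library's total, MEFs stood at 0.528% and NT-iPSCs at 0.551%. ESCs stood at 0.967%, iPSCs at 0.929% and NT-ESCs at 1.13%. These 10 were taken library by library and can differ between groups, so the groups need not share a denominator. No test was made of these sums. miR-130a-3p ranked between place 43 and 75 by reads among the miRNAs of a library, and miR-130b-3p between place 55 and 102. miR-301b-5p was at the other end, with 0 to 24 reads.

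**Figure D1:**
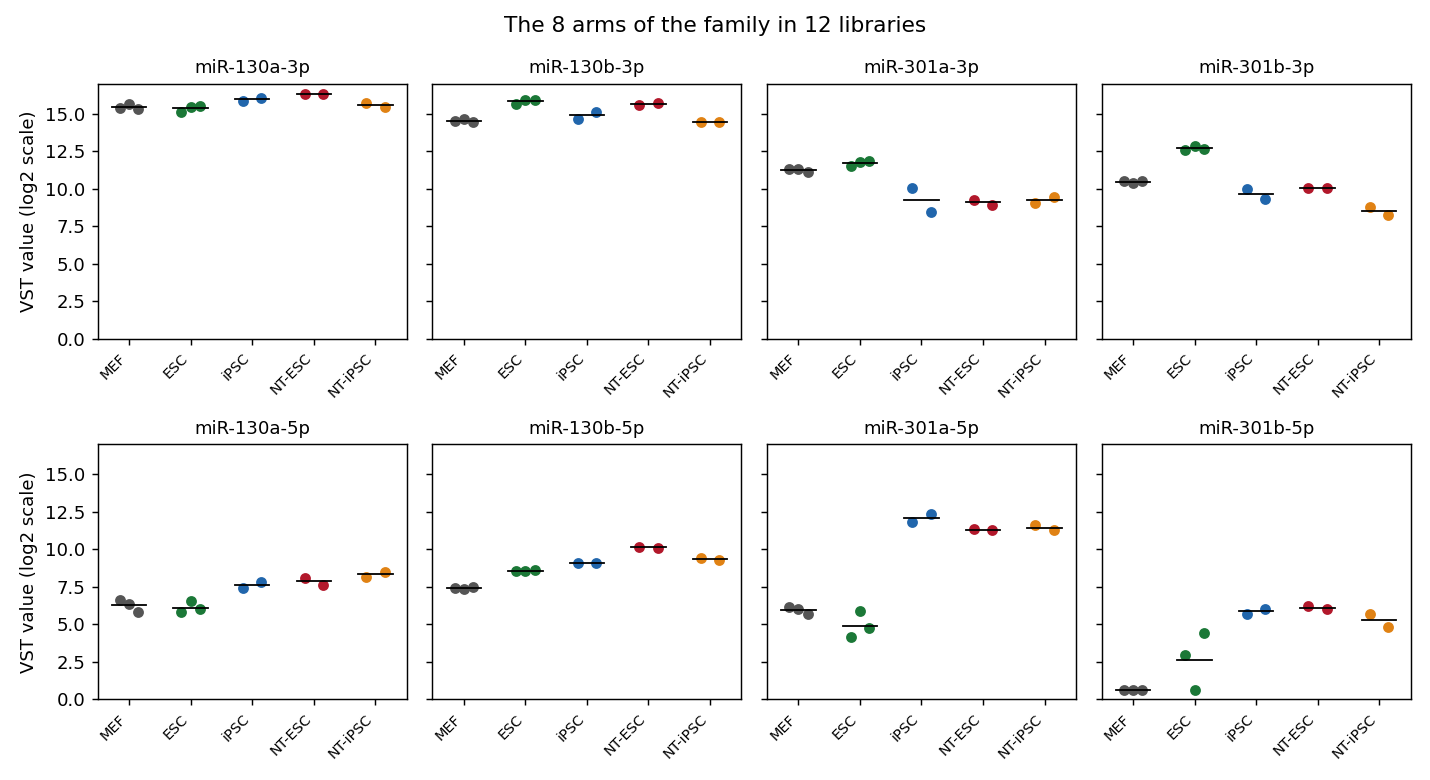
VST value (y axis, log2 scale) of each of the 8 arms in every library (points), by cell type (x axis), with the group mean as a bar. miR-301a-5p sits between 4.13 and 6.15 in MEFs and ESCs and between 11.27 and 12.33 in the 6 reprogrammed libraries, while the 3p arms of miR-301a and miR-301b are lower in reprogrammed cells than in ESCs.

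The order among the 3p arms was not the same in every cell type. miR-130b-3p made up 52.3% to 52.9% of the reads of the 4 arms in ESCs and led there in all 3 libraries. In MEFs it made up 31.8% to 33.8%, and miR-130a-3p led with 60.5% to 63.4%. miR-130a-3p also led in the 6 reprogrammed libraries, with 59.6% to 69.6%, as it did in MEFs. miR-301b-3p took 5.33% to 6.4% of the 3p reads in ESCs, 1.62% to 2.22% in MEFs and 0.431% to 1.15% in the reprogrammed types. miR-301a-3p took 2.98% to 3.63% in MEFs and ESCs and 0.332% to 1.21% in reprogrammed cells. These shares compare reads of different miRNAs, whose capture was not calibrated, and they are not affected by the scaling between libraries.

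**Figure D2:**
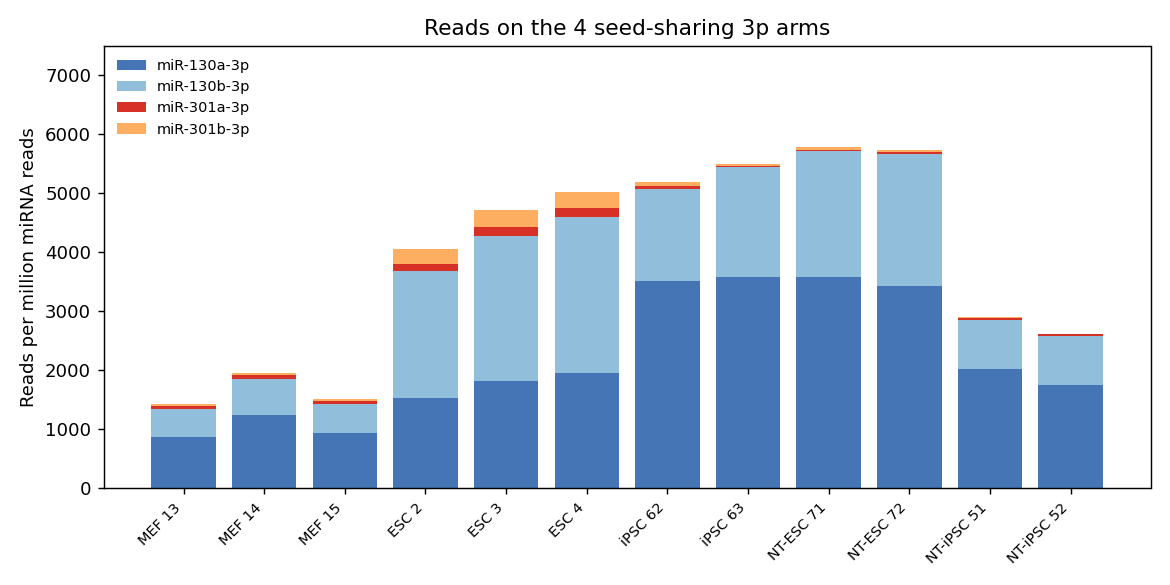
CPM of the 4 seed-sharing 3p arms (y axis), stacked in each of the 12 libraries (x axis, cell type and replicate). miR-130b-3p is the largest segment in the 3 ESC libraries and miR-130a-3p in the other 9, and the segments of miR-301a-3p and miR-301b-3p are tallest in the 3 ESC libraries.

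The comparison of MEFs with ESCs asks how the family differs between a somatic and a pluripotent cell. miR-130b-3p, miR-130b-5p and miR-301b-3p, which come from the same intron, were lower in MEFs. miR-301b-3p had VST values of 10.52, 10.36 and 10.52 in MEFs (248 to 270 reads) and 12.59, 12.85 and 12.62 in ESCs (1263 to 1707 reads). Every MEF library lay below every ESC library, and the difference was -2.22 (SE 0.21, limma adjusted p = 1.6e-06). For miR-130b-3p the VST values were 14.52, 14.65 and 14.41 in MEFs and 15.64, 15.91 and 15.93 in ESCs, again without overlap, and the difference was -1.30 (SE 0.15, adjusted p = 9.1e-06). miR-130b-5p, at 30 to 33 reads in MEFs and 78 to 85 in ESCs, differed by -1.15 (SE 0.16, adjusted p = 4e-05). Under the 3 other scalings between libraries these 3 differences kept their sign and stayed past the threshold, between -3.11 and -1.58 for miR-301b-3p, -2.19 and -0.66 for miR-130b-3p, and -2.02 and -0.52 for miR-130b-5p.

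The remaining arms gave no stable difference between MEFs and ESCs. miR-130a-3p, the most abundant member in MEFs, had VST values of 15.36, 15.64 and 15.32 in MEFs and 15.14, 15.46 and 15.48 in ESCs, and these overlap. Its difference was 0.08 (SE 0.15, adjusted p = 0.633), and it was 0.72 with upper quartile scaling, -0.43 with TMM-type scaling and -0.81 with scaling to total reads. All 3 of these values passed the threshold, so no direction can be given for miR-130a-3p. The median difference of all tested miRNAs was 0.00, and it was 0.55, -0.43 and -0.80 under those scalings. The difference of miR-301a-3p was -0.47 (SE 0.32, adjusted p = 0.201), with no overlap between the groups. It passed with TMM-type scaling (-0.98), with total reads (-1.36), with only MEFs and ESCs in the model (adjusted p = 0.0154), and without iPSC replicate 62 or 63 (adjusted p = 0.0279 and 0.0269), and it was 0.16 with the upper quartile. miR-130a-5p had 10 to 17 reads in MEFs and 11 to 21 in ESCs and differed by 0.16 (SE 0.31, adjusted p = 0.65). It passed in opposite directions with the upper quartile (0.77, adjusted p = 0.0385) and with total reads (-0.69, 0.0476), so it too has no direction. miR-301a-5p had 12, 12 and 9 reads in MEFs and 3, 13 and 5 in ESCs, and its difference of 1.06 (SE 0.38, adjusted p = 0.0239) missed the threshold without MEF replicate 13 or 14 (0.0589 and 0.0562) and without ESC replicate 2 or 4 (0.0972 and 0.0723). It was also lost with TMM-type scaling (0.58, adjusted p = 0.219), with total reads (0.22, 0.584), with only the groups compared (0.0913) and with voom (0.0639). miR-301b-5p had no read in MEFs and 1, 0 and 4 in ESCs, too few for a fold, and its call (adjusted p = 0.0325) was lost without any 1 of MEF replicates 13, 14 and 15 and ESC replicates 2 and 4 (0.0583 to 0.129). It was among the tested miRNAs only through the reprogrammed libraries. No difference between MEFs and ESCs is therefore read from this arm. In all, 5 of the 8 arms passed, 1 higher and 4 lower in MEFs, where 79.0% of the 732 tested miRNAs passed, 39.1% higher and 39.9% lower. The 4 lower include miR-301b-5p, from which no difference is read. The median difference of the 8 arms, miR-301b-5p included, was -0.81, against 0.00 over all miRNAs tested. In 4 of the 8 arms the MEF and ESC libraries did not overlap, which was so for 79.9% of all. The share of calls that were higher in MEFs was 49.5%, and it was 60.4%, 37.8% and 29.6% with the upper quartile, TMM-type and total read scalings.

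**Figure D3:**
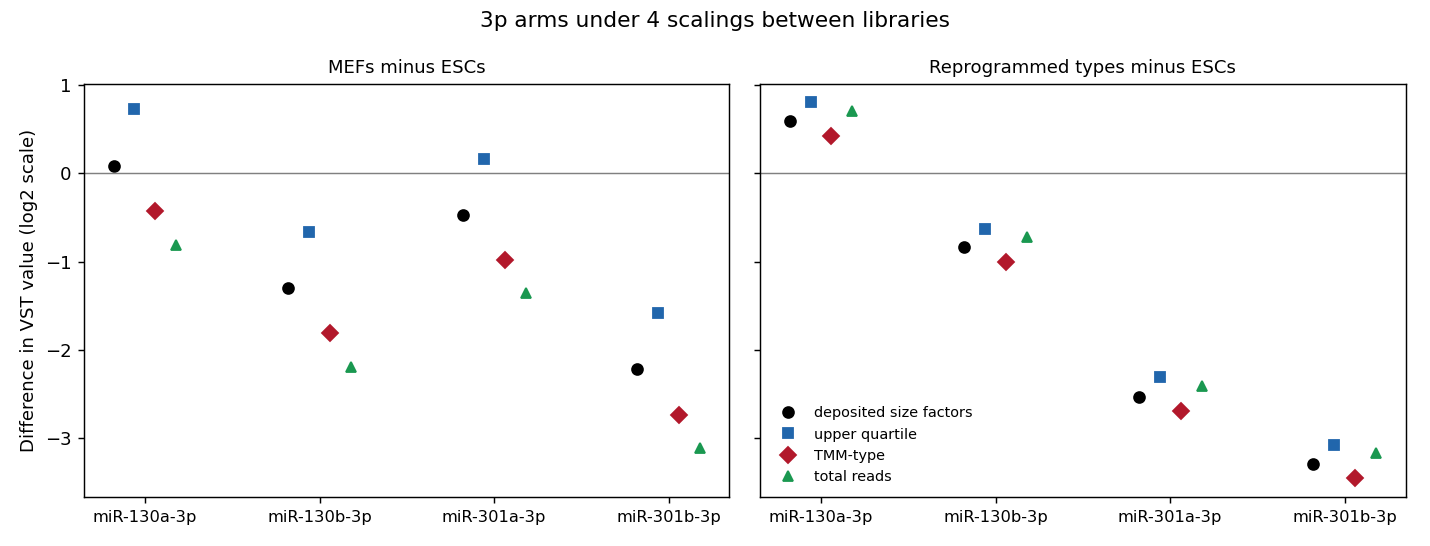
Difference in VST value (y axis, log2 scale) of the 4 3p arms (x axis) under the deposited size factors and 3 other scalings between libraries (symbols), for MEFs minus ESCs and for the mean of the reprogrammed types minus ESCs. In the first panel miR-130a-3p runs from -0.81 to 0.72, and in the second each arm keeps its sign.

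Against ESCs, the reprogrammed cells had less of miR-301a-3p and miR-301b-3p and much more of miR-301a-5p. The comparison asks whether reprogrammed cells reach the levels of an ESC line. miR-301b-5p reached the minimum of 10 reads in reprogrammed libraries only, so it had to differ and is left out of the counts, and its reads are described further on. The other 7 arms all passed in the mean of the 3 reprogrammed types, 4 higher and 3 lower, where 82.0% of the tested miRNAs passed, 44.0% higher and 38.0% lower, so the number of calls was near the background. The median difference of the 7 was 0.59, against 0.24 over all miRNAs. All 7 signs were the same under the 4 scalings.

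miR-301b-3p was lower in every reprogrammed library than in any ESC library. Its VST values were 9.98 and 9.30 in iPSCs. They were 10.07 and 10.02 in NT-ESCs and 8.80 and 8.21 in NT-iPSCs, against 12.59 to 12.85 in ESCs. The mean difference was -3.29 (SE 0.18, adjusted p = 1e-08). For iPSCs it was -3.04 (adjusted p = 2.8e-07), for NT-ESCs -2.64 (1e-06) and for NT-iPSCs -4.18 (2.1e-08), with an SE of 0.23 each. On this scale the values stand for levels 8.25, 6.23 and 18.2 times lower. In reads, the arm fell from 1263 or more in ESCs to between 82 and 359.

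miR-301a-3p was also lower, with VST values in iPSCs of 10.04 and 8.47, in NT-ESCs of 9.25 and 8.90, and in NT-iPSCs of 9.04 and 9.41. In ESCs they were 11.52, 11.78 and 11.84, which do not overlap with these. The mean difference was -2.53 (SE 0.28, adjusted p = 5.6e-06), and by type it was -2.46, -2.64 and -2.49 (SE 0.36 each). The iPSC libraries stood apart from each other, at 331 reads in replicate 62 and 111 in replicate 63, an SD of 1.11 against at most 0.26 in the other groups. All 3 types were lower than MEFs too, whose VST values were 11.10 to 11.31, with a mean difference of -2.05 (SE 0.28, adjusted p = 2.7e-05).

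miR-130b-3p was lower in the mean of the reprogrammed types than in ESCs, with a difference of -0.84 (SE 0.13, adjusted p = 8.5e-05), but the types were not alike. Its VST values in iPSCs were 14.66 and 15.13, in NT-ESCs 15.56 and 15.70, and in NT-iPSCs 14.44 and 14.41. The NT-ESC libraries overlapped with the ESCs, with a difference of -0.20 (SE 0.17, adjusted p = 0.295), which was 0.04 with upper quartile scaling. For iPSCs the difference was -0.93 and for NT-iPSCs -1.40, with an SE of 0.17 each and an adjusted p of 0.000346 and 1.2e-05.

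miR-130a-3p was the 3p arm that rose. Its VST values in iPSCs were 15.85 and 16.07, in NT-ESCs 16.31 and 16.30, and in NT-iPSCs 15.70 and 15.47, and the lowest of them lies within the ESC range. The mean difference from ESCs was 0.59 (SE 0.13, adjusted p = 0.00112). NT-ESCs were 0.94 higher (adjusted p = 0.000264) and iPSCs 0.60 higher (adjusted p = 0.00566), SE 0.16 each. The iPSC call was lost with TMM-type scaling (adjusted p = 0.0589) and without iPSC replicate 63 (0.0532). For NT-iPSCs the difference was 0.22 (SE 0.16, adjusted p = 0.229), and it passed with upper quartile scaling (0.47, adjusted p = 0.02).

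miR-301a-5p, miR-130b-5p and miR-130a-5p passed as higher in the mean of the reprogrammed types than in ESCs and than in MEFs. miR-301a-5p had 1137 and 1628 reads in iPSCs. It had 857 and 653 in NT-ESCs and 891 and 691 in NT-iPSCs. In MEFs it had 9 to 12 reads and in ESCs 3 to 13. The VST difference between the reprogrammed mean and ESCs was 6.70 (SE 0.33, adjusted p = 3.9e-09), and by type 7.16, 6.39 and 6.54 (SE 0.42 each) in iPSCs, NT-ESCs and NT-iPSCs. Against MEFs it was 5.64 (SE 0.33, adjusted p = 1.2e-08). The arm moved from places 502 to 666 by reads in MEF and ESC libraries to places 191 to 236 in reprogrammed libraries.

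miR-130b-5p had 30 to 33 reads in MEFs, 78 to 85 in ESCs and 171 and 173 in iPSCs. In NT-ESCs it had 291 and 380, more than in any other group, and in NT-iPSCs 178 and 191. The VST difference from ESCs was 0.95 in the mean (SE 0.14, adjusted p = 4.7e-05). For iPSCs it was 0.52, for NT-ESCs 1.56 and for NT-iPSCs 0.79 (SE 0.17 each). The call in iPSCs (adjusted p = 0.0176) was lost with TMM-type scaling (0.11) and without iPSC replicate 62 (0.0552). miR-130a-5p had 10 to 21 reads in MEFs and ESCs and 52 to 102 in reprogrammed cells, and its VST value was 1.82 higher than in ESCs (SE 0.26, adjusted p = 5.7e-05).

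miR-301b-5p stayed near the limit of detection. Its reads were 15 and 20 in iPSCs, 24 and 16 for NT-ESCs and 14 and 7 for NT-iPSCs, against 0 to 4 in ESCs and none in MEFs. Its mean CPM in reprogrammed cells was 2.45, and the limit of 3 reads in a MEF library came to a mean CPM of 0.367. No fold is given, because its size would depend on the scaling between libraries. Its difference in VST value between reprogrammed cells and ESCs or MEFs is given no test, because it was among the tested miRNAs only through the libraries in which it was higher.

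Without miR-301b-5p, 7 of 7 arms passed between iPSCs and ESCs (75.8% of all tested miRNAs), 6 between NT-ESCs and ESCs (75.8%) and 6 between NT-iPSCs and ESCs (77.6%). These comparisons share the ESC libraries.

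Measured against MEFs, from which the reprogrammed types were made, miR-301a-3p and miR-301b-3p were lower and 3 of the 5p arms higher. Again without miR-301b-5p, which had no read in MEFs, all 7 arms passed in the mean of the 3 types, 5 higher and 2 lower, where 88.9% of the tested miRNAs passed, 48.5% higher and 40.4% lower. Their median difference was 0.51, against 0.40 over all miRNAs. In 5 of the 7 the libraries did not overlap, and the same held for 80.6% of all miRNAs. By type 6 of 7 passed in iPSCs (87.8% of all), 6 in NT-ESCs (84.0%) and 5 in NT-iPSCs (83.1%). Calls of higher miRNAs made up 54.5% in the mean comparison and 65.6% with scaling to total reads.

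Many differences of the 3p arms from MEFs depended on the scaling. That of miR-301a-3p passed under all 4 scalings in the mean (-2.48 to -1.05), in NT-ESCs (-2.56 to -1.22) and in NT-iPSCs (-2.41 to -1.25). miR-301b-3p differed by -1.07 in the mean (SE 0.18, adjusted p = 0.000153), but with total reads its difference was -0.06 (adjusted p = 0.759). In NT-iPSCs it differed by -1.96 (SE 0.23, adjusted p = 9.4e-06) and passed under all 4 scalings. In iPSCs the difference was -0.83 (SE 0.23, adjusted p = 0.00597), it was 0.48 with total reads, and the call was lost with TMM-type scaling (-0.48, adjusted p = 0.102) and without iPSC replicate 63 (-0.49, adjusted p = 0.0862). In NT-ESCs it was -0.42 (adjusted p = 0.11), and it passed with only the groups compared in the model (0.0337) and with the upper quartile (-0.82, 0.00902). With total reads it was 0.53. The difference of miR-301a-3p in iPSCs, -1.98 (SE 0.36, adjusted p = 0.000311), was -0.68 with total reads (0.132). miR-130a-3p differed from MEFs by 0.51 in the mean (SE 0.13, adjusted p = 0.00257) and by 0.09 (0.515) with upper quartile scaling, and miR-130b-3p by 0.46 (SE 0.13, adjusted p = 0.00558) and by 0.04 (0.782). Of the single types, miR-130b-3p was 1.10 higher in NT-ESCs (SE 0.17, adjusted p = 6.9e-05) and passed under all 4 scalings. In iPSCs it differed by 0.37 (adjusted p = 0.0525) and in NT-iPSCs by -0.10 (0.578), and upper quartile scaling (-0.10) or total reads (0.67) turned these signs. The iPSC difference passed without MEF replicate 14 (0.0475) or iPSC replicate 62 (0.00912), with TMM-type scaling (0.00416) and with total reads (1.68, 8.3e-07). In NT-iPSCs it passed in opposite directions with the upper quartile (-0.49, 0.0113) and total reads (0.67, 0.00193). miR-130a-3p was 0.86 higher in NT-ESCs (SE 0.16, adjusted p = 0.000421), also under all 4 scalings. It was 0.52 higher in iPSCs (0.0107), a call lost without iPSC replicate 63 (0.0856) and with the upper quartile (0.785). In NT-iPSCs it differed by 0.14 (0.418), by 0.46 with TMM-type scaling (0.0454), by 0.91 with total reads (0.000404) and by -0.25 with the upper quartile (0.163).

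The arms of 1 hairpin come from the same transcript in equal number. Both share the size factor of their library, so the ratio of their reads is free of the scaling between libraries. Their difference in VST value is not strictly free of it at low reads. For miR-301a the arm with most reads changed. The 5p arm made up 2.18% to 2.62% of the hairpin's reads in MEFs and 0.497% to 1.58% in ESCs. In reprogrammed cells it made up 77.5% and 93.6% in iPSCs. The NT-ESC libraries had 80.9% and 83.8%, and the NT-iPSC libraries 85.8% and 78.5%. The 95% Wilson interval of the lowest reprogrammed value was 75.2% to 79.5% and that of the highest MEF or ESC value 1.51% to 4.52%. The sum of both arms was a CPM of 121 to 286 in reprogrammed cells, 124 to 157 in ESCs and 51.2 to 62.7 in MEFs, so the hairpin's reads in the NT types were close to those in ESCs while their arm differed.

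The other 3 hairpins kept the 3p arm as the leading one, with a larger share on the 5p arm in reprogrammed cells. For miR-301b the 5p arm made up 0 in MEFs (of 248 to 270 reads, with upper Wilson limits of 1.4% to 1.53%) and 0% to 0.297% in ESCs. In reprogrammed libraries it made up 4.52% to 10.1%. For miR-130b it made up 0.593% to 0.821% in MEFs and ESCs and 1.49% to 2.94% in reprogrammed cells. For miR-130a, 0.133% to 0.228% stood against 0.243% to 0.798%. The highest MEF or ESC share of miR-130a (MEF replicate 13) had a Wilson interval of 0.142% to 0.365%. It overlapped with that of the lowest reprogrammed share, 0.185% to 0.319% in NT-ESC replicate 72. miR-301b is left out next, because its 5p arm reached 10 reads in reprogrammed libraries only. For miR-301a, miR-130b and miR-130a the MEF and ESC libraries did not overlap with the reprogrammed libraries in 3p minus 5p VST value. The same held for 75.7% of the 263 hairpins with both arms measured between ESCs and reprogrammed cells, and for 70.7% between MEFs and reprogrammed cells.

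**Figure D4:**
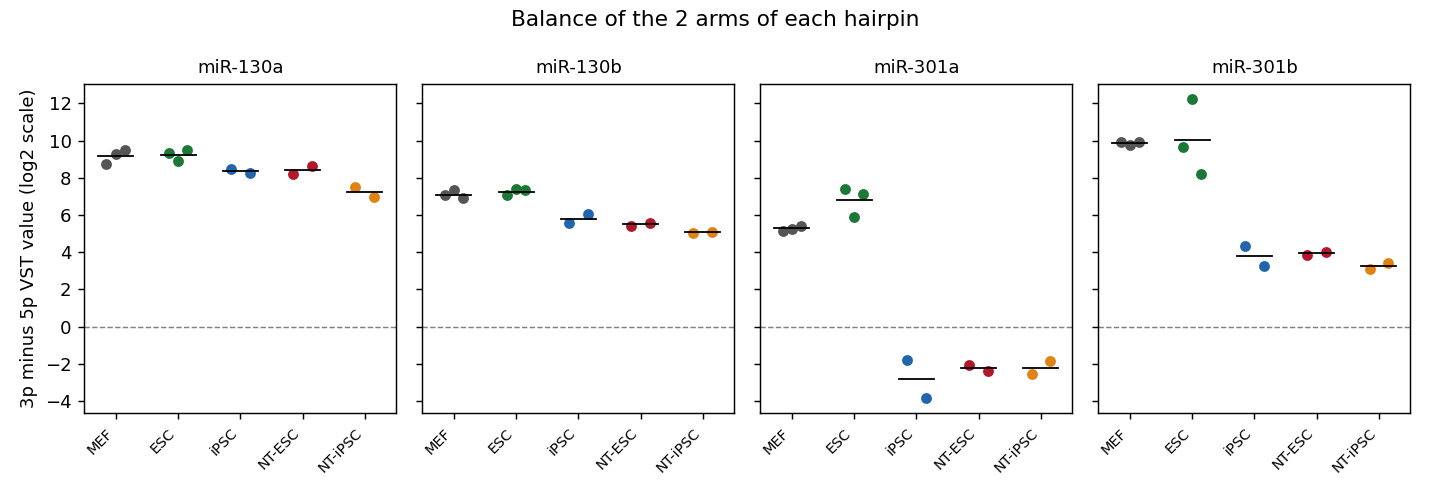
VST value of the 3p arm minus that of the 5p arm (y axis, log2 scale) of each hairpin in every library (points), by cell type (x axis), with the group mean as a bar and a dashed line where the arms are equal. miR-301a lies above the line in MEFs and ESCs and below it, between -3.86 and -1.78, in the 6 reprogrammed libraries.

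The change was tested in 1 limma model of the 3p minus 5p VST value across the 263 hairpins with both arms past the filter. Between the reprogrammed mean and ESCs miR-301a, miR-130b and miR-130a passed, each towards the 5p arm, where 79.5% of the hairpins passed, 35.0% towards 5p and 44.5% towards 3p. The changes were -9.22 for miR-301a (SE 0.47, adjusted p = 4.4e-08), -1.80 for miR-130b (SE 0.21, 2e-05) and -1.24 for miR-130a (SE 0.27, 0.00159). Their median was -1.80, against 0.36 over the 263 hairpins, whose median size of change was 2.69. miR-301a had the 2nd largest change towards the 5p arm of all 263, while miR-130b and miR-130a took places 74 and 84. Against MEFs all 3 passed as well (77.6% of all, 33.8% towards 5p), with -7.70 for miR-301a (SE 0.47, adjusted p = 1.9e-07), -1.65 for miR-130b (SE 0.21, 4.4e-05) and -1.16 for miR-130a (SE 0.27, 0.00252). miR-301b is given no test here, since its 5p arm had 0 to 4 reads in MEFs and ESCs and was tested only because of the reprogrammed libraries. By type, miR-130a was the hairpin near the threshold. It changed by -0.89 in iPSCs against ESCs (adjusted p = 0.0383), a call lost without ESC replicate 2 or 4 or iPSC replicate 62 or 63 (0.0797 to 0.161), and by -0.81 in NT-ESCs (0.0566), which passed without ESC replicate 3 (0.0349) or MEF replicate 13 (0.0441). Against MEFs it changed by -0.81 in iPSCs (0.0572) and -0.73 in NT-ESCs (0.0817), which passed without MEF replicate 13 (0.0258 and 0.0354), and by -1.93 in NT-iPSCs (0.000565).

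Arm balance moved across many hairpins between the same sets of libraries. The arm with most reads in every ESC library was the other one in every reprogrammed library for 44 of 263 hairpins (16.7%), of which 19 moved from 3p to 5p, miR-301a among them, and 25 from 5p to 3p. Between MEFs and reprogrammed cells there were 33 (12.5%), and between MEFs and ESCs 3 (1.14%). Between MEFs and ESCs 23.6% of the hairpins passed and the median size of change was 0.68. Of the 4 family hairpins limma called 0 there. Among them miR-301b, with 0 to 4 reads on its 5p arm, can show neither a change nor its absence. The 1 hairpin at an unadjusted p under 0.05 was miR-301a, with -1.53 (SE 0.54, adjusted p = 0.0694). It passed without ESC replicate 3 (-1.98, adjusted p = 0.0343), without iPSC replicate 62 or 63 (0.024 each), and on a log2 scale with a pseudocount of 1 added to the normalized reads (-1.49, adjusted p = 0.0462). Among the 3 reprogrammed types limma called 0 of the 4 in any comparison, with 0, 2 and 1 at an unadjusted p under 0.05, where 0%, 0% and 0.380% of all hairpins passed. What part the preparation of the libraries had in this change of arm was not tested.

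**Figure D5:**
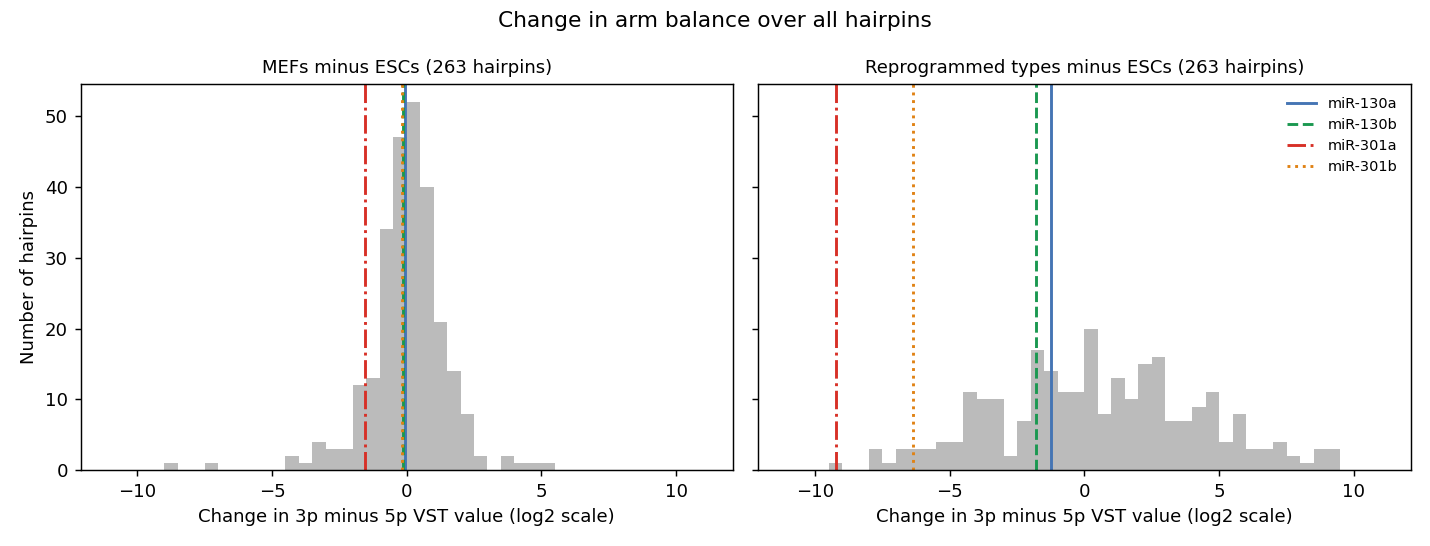
Histogram of the change in 3p minus 5p VST value (x axis, log2 scale) over 263 hairpins (y axis, number of hairpins), with the 4 family hairpins as vertical lines. For MEFs minus ESCs the lines lie between -1.53 and -0.08, and for the reprogrammed mean minus ESCs between -9.22 and -1.24.

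The neighbours miR-130b and miR-301b were compared within each library, since they lie in 1 intron. Reads of miR-301b-3p came to 5.09% to 6.77% of those of miR-130b-3p in MEFs and 10.1% to 12.1% in ESCs. The iPSC libraries had 3.87% and 1.75%, the NT-ESC libraries 2.22% and 1.95%, and the NT-iPSC libraries 1.98% and 1.35%. The ratio thus lay highest in ESCs, and the ranges of ESCs, MEFs and reprogrammed cells did not overlap. As a VST difference, miR-301b-3p minus miR-130b-3p had a mean of -3.14 in ESCs (SD 0.146, n = 3). In MEFs the mean was -4.06 (SD 0.212, n = 3), and over the 6 reprogrammed libraries -5.59 (SD 0.502). Of this ratio no test was made.

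Among the reprogrammed types the miR-130b arms and miR-301b-3p varied, and NT-iPSCs were the lowest for both 3p arms. Against NT-ESCs, 4 of the 8 arms passed in NT-iPSCs, all lower, where 12.8% of the tested miRNAs passed, 5.60% higher and 7.24% lower. The share of calls that were higher was 43.6%, and it was 34.2% with TMM-type scaling and 20.8% with total reads. miR-130b-3p had VST values of 14.44 and 14.41 in NT-iPSCs and 15.56 and 15.70 in NT-ESCs, a difference of -1.20 (SE 0.18, adjusted p = 0.00488). This call held without any 1 of the 4 libraries. miR-301b-3p, at 8.80 and 8.21 against 10.07 and 10.02, differed by -1.54 (SE 0.25, adjusted p = 0.00576), a call lost without NT-ESC replicate 71 (0.0585) or with only these groups in the model (0.0522). miR-130a-3p differed by -0.72 (SE 0.18) and miR-130b-5p by -0.77 (SE 0.19), both with an adjusted p of 0.0353. Each of these calls was lost on leaving out any 1 of NT-ESC replicates 71 and 72 and NT-iPSC replicates 51 and 52, with adjusted p between 0.0577 and 0.14 for miR-130a-3p and between 0.0771 and 0.132 for miR-130b-5p. With only these groups in the model they were 0.0508 and 0.0557. The median difference of the 8 arms was -0.74, against 0.08 over all miRNAs.

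Between NT-ESCs and iPSCs, 2 of the 8 arms passed (25.7% of all miRNAs, 12.6% higher and 13.1% lower), and both were miR-130b arms, higher in NT-ESCs. Of all calls 48.9% were higher, and 25.1% with total reads. miR-130b-5p had VST values of 10.15 and 10.11 against 9.11 and 9.09, a difference of 1.03 (SE 0.19, adjusted p = 0.00318). miR-130b-3p differed by 0.73 (SE 0.18, adjusted p = 0.0139), which was lost without iPSC replicate 62 (0.50, adjusted p = 0.0955), without NT-ESC replicate 72 (0.091), with total reads (0.119) and with only these groups in the model (0.0761). Between NT-iPSCs and iPSCs, 1 of the 8 passed (26.5% of all, 13.4% higher and 13.1% lower). Of all calls 50.5% were higher, and 21.0% with total reads. The arm was miR-301b-3p at -1.14 (SE 0.25, adjusted p = 0.007), and this call was lost without iPSC replicate 62 (0.0559), without NT-iPSC replicate 52 (0.0607) and with only these groups in the model (0.13). miR-130b-3p differed by -0.47 (adjusted p = 0.0815) and passed without iPSC replicate 62 (-0.71, 0.0257) and with total reads (-1.02, 0.00087). miR-130a-3p differed by -0.38 (0.158) and also passed with total reads (-0.92, 0.00282). Without iPSC replicate 63, miR-301a-3p was lower in both nuclear transfer types than in the remaining iPSC library (-0.96 and -0.82, adjusted p = 0.0289 and 0.0473), and without replicate 62 the signs turned (0.61 and 0.75, 0.132 and 0.0674). With both libraries its differences were -0.18 and -0.03 (0.777 and 0.968). miR-301a-5p differed from iPSCs by -0.78 in NT-ESCs and -0.63 in NT-iPSCs on the VST scale (SE 0.46 each, adjusted p = 0.256 and 0.364), and with voom on the reads both passed (0.0155 and 0.0473). In each of these comparisons 2 libraries stood against 2.

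Ordered by mean VST value, miR-130a-3p ran from NT-ESCs (16.30) through iPSCs (15.96), NT-iPSCs (15.59) and MEFs (15.44) to ESCs (15.36), and no neighbours in that order differed past the threshold. miR-130b-3p ran from ESCs (15.82) and NT-ESCs (15.63) to iPSCs (14.90), MEFs (14.53) and NT-iPSCs (14.43), and of the neighbours NT-ESCs and iPSCs differed. miR-301a-3p ran from ESCs (11.71) and MEFs (11.24) to iPSCs (9.25), NT-iPSCs (9.22) and NT-ESCs (9.07), and of the neighbours MEFs and iPSCs differed (adjusted p = 0.000311). miR-301b-3p ran from ESCs (12.69) to MEFs (10.47), NT-ESCs (10.05), iPSCs (9.64) and NT-iPSCs (8.50). Its neighbours ESCs and MEFs differed, as did iPSCs and NT-iPSCs. Positions that involve MEFs depend on the scaling, as given above.

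Profiles over the 5 cell types were compared by the mean absolute difference between group means, each profile centred on its own mean. Among 724 other miRNAs, miR-130a-3p was nearest to miR-16-2-3p (0.14), miR-34c-3p (0.22) and miR-26b-5p (0.23), where the median distance was 1.32. miR-130b-3p was nearest to miR-93-3p (0.16), miR-3086-5p (0.25) and miR-425-3p (0.28), with a median of 1.36. For miR-301a-3p the nearest were miR-1943-5p (0.10), miR-3057-5p (0.13) and miR-7b-5p (0.17), with a median of 1.57. For miR-301b-3p they were miR-106b-5p (0.31), miR-700-3p (0.32) and miR-128-1-5p (0.33), with a median of 1.74. Within the family, miR-130a-3p and miR-130b-3p lay 0.45 apart and miR-301a-3p and miR-301b-3p 0.73 apart. The 2 arms of miR-301a lay 4.06 apart.

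No reads came from the 1 other measured miRNA with the family seed. Of 1679 mature miRNAs in RefSeq, 4 others carry it, of which 1, miR-721, was measured here, and it had no read in any library. miR-148a-3p, miR-148b-3p and miR-152-3p hold the bases AGUGCA of that seed 1 base further in, from base 3, and are known for targeting a DNA methyltransferase.
miR-148a-3p: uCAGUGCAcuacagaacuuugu
miR-152-3p: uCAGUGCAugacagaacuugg
Capitals mark their own seeds. miR-148a-3p had a mean VST value of 18.37 in MEFs and 17.98 in ESCs, and in reprogrammed cells it differed from ESCs by -4.57 (SE 0.12, adjusted p = 5.2e-11). miR-148b-3p differed by -3.59 (SE 0.16, adjusted p = 1.6e-09), and miR-152-3p differed by -0.09 (SE 0.22, adjusted p = 0.71). Of the family's 3p arms, miR-130a-3p was 0.59 higher in the reprogrammed mean than in ESCs. miR-130b-3p (-0.84), miR-301a-3p (-2.53) and miR-301b-3p (-3.29) were lower. These miRNAs thus did not all move in 1 direction, and only miR-130a-3p rose.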

How the data were processed

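Small RNA of 3 MEF, 3 ESC, 2 iPSC, 2 NT-ESC and 2 NT-iPSC libraries was sequenced on the Solexa platform. The authors deposited log2 scale values, made by removing adaptors and contaminants, annotating miRNAs, scaling with DESeq size factors and variance stabilizing. Per the labels the genome build was mm8, which was not used for positions. The aligner and the miRBase release are not given in the sources used here.

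Reads were recovered by inverting the transformation, and 100% of nonzero values were whole within 0.05 read (largest deviation 0.0162). Groups were compared with limma (version 3.58.1 under R version 4.3.3), taking the deposited values, 1 mean per cell type, trend and empirical Bayes moderation. Tested were the 732 miRNAs that reached 10 reads in 2 or more libraries. Benjamini-Hochberg adjustment covered all 732, with a threshold of 0.05, and 12 comparisons were made. The same fit was made on the 3p minus 5p value of 263 hairpins. Differences are the first group minus the second in log2 units. At low reads they fall short of the log2 fold change. The procedure was tested on simulated data.

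The miRNAs named were the family arms, other miRNAs with their seed, 3 with an offset seed, and for each 3p arm the 3 with the nearest profile. The members and lists were chosen with earlier results of these data known. Alternatives were upper quartile and TMM-type scaling (trimming 30% of ratios and 5% of abundances), log2 with a pseudocount of 1, no filter, a minimum of 100 reads throughout any 1 group, only the groups compared, voom, and each library left out. Scaling to total reads was chosen after seeing the data. Tables and plots used pandas 2.3.3, numpy 2.4.6 and matplotlib 3.10.9, with Wilson intervals from scipy 1.17.1, under Python 3.11.15.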

Additional observations from a re-analysis of the deposited data

How the results depend on the processing

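No paired analysis was possible because no replicate number is shared between groups. miR-301b-5p and the miR-301b hairpin in reprogrammed cells against ESCs or MEFs aside, 2264 differences of single arms and hairpins were computed under an alternative. Of these, 2143 kept their sign and side of the threshold, 51 lost a call, 32 gained one and 38 changed sign. The causes of these changes were not tested. Changing the filter, fitting only the groups compared, or leaving out a library of a group outside the comparison cannot alter a difference. Under these alternatives the sign was fixed beforehand, and only the adjusted p could move. The 2143 include such differences, so their number does not measure how stable the signs were. Leaving out a library from a group of 2 leaves 1, which is assumed to vary like the others. Depth limits miR-301b-5p and, in MEFs and ESCs, miR-301a-5p and miR-130a-5p.

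Under upper quartile scaling the sign changed for miR-130a-3p in NT-iPSCs against MEFs (-0.25), for miR-130b-3p in NT-ESCs against ESCs (0.04) and iPSCs against MEFs (-0.10), and for miR-301a-3p in MEFs against ESCs (0.16) and NT-iPSCs against iPSCs (0.05). Under TMM-type scaling it changed in MEFs against ESCs for miR-130a-3p (-0.43) and miR-130a-5p (-0.33), and in NT-iPSCs against MEFs for miR-130b-3p (0.21). Under total read scaling it changed in MEFs against ESCs for miR-130a-3p (-0.81) and miR-130a-5p (-0.69), against MEFs for miR-130b-3p in NT-iPSCs (0.67) and for miR-301b-3p in iPSCs (0.48) and NT-ESCs (0.53), in NT-ESCs against iPSCs for miR-130a-3p (-0.02), miR-130a-5p (-0.09) and miR-301b-5p (-0.09), in NT-iPSCs against iPSCs for miR-130b-5p (-0.28), and in NT-iPSCs against NT-ESCs for miR-301a-3p (-0.04) and miR-301a-5p (-0.03).

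Over all 8 arms, the number called moved from 5 to 3 with voom in MEFs against ESCs (and to 7 with the upper quartile and with total reads, 6 with TMM-type scaling), from 2 to 1 in NT-ESCs against iPSCs with total reads and with only those groups, from 1 to 3, 0 and 2 in NT-iPSCs against iPSCs with total reads, only those groups and voom, and from 4 to 1 in NT-iPSCs against NT-ESCs with only those groups. With a pseudocount of 1, 1 hairpin changed arm balance in MEFs against ESCs instead of 0. The share of reads on the 3p arms without the 10 most abundant miRNAs of each library was 0.528% in MEFs, 0.967% in ESCs and 0.929% in iPSCs. It was 1.13% for NT-ESCs and 0.551% for NT-iPSCs.

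Leaving out each library gave 3 to 6 called arms in MEFs against ESCs, 1 to 3 in NT-ESCs against iPSCs, 0 to 2 in NT-iPSCs against iPSCs and 1 to 4 in NT-iPSCs against NT-ESCs, and 0 to 1 called hairpins in MEFs against ESCs. Ranges that included both signs were -0.03 to 0.14 (miR-130a-3p) and -0.02 to 0.37 (miR-130a-5p) in MEFs against ESCs, -0.96 to 0.61 (NT-ESCs), -0.82 to 0.75 (NT-iPSCs) against iPSCs and -0.04 to 0.33 (NT-iPSCs against NT-ESCs) for miR-301a-3p, and -0.03 to 0.32 in NT-iPSCs against NT-ESCs for miR-301a-5p. For the 3p minus 5p value they were -0.24 to 0.14 (miR-130a) and -1.09 to 0.95 (miR-301b) in MEFs against ESCs, -0.15 to 0.31 (miR-130a), -0.45 to 1.64 (miR-301a) and -0.38 to 0.69 (miR-301b) in NT-ESCs against iPSCs, -0.45 to 1.64 in NT-iPSCs against iPSCs and -0.36 to 0.36 in NT-iPSCs against NT-ESCs for miR-301a.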
